A study of Mus musculus with 6 samples.

Results

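The insulin-like growth factor (IGF) family comprises secreted ligands, their receptors and the binding proteins that hold the ligands outside the cell. Probe sets were taken as members when the platform annotation gave exactly 1 of 10 symbols (Igf1, Igf2, Igf1r, Igf2r, Igfbp2, Igfbp3, Igfbp4, Igfbp5, Igfbp6 and Igfbp7), which yielded 8 of the 10 genes (of 17097 genes in all) and 20 of 45037 probe sets. Igf2r shared its only probe set with the antisense transcript Airn and Igfbp7 had no probe set named here, so neither entered. The family was selected on log2 fold changes and p-values of the same contrast of genotypes, known from an earlier analysis of these arrays in which Igfbp6 stood out, so the members' differences are given as descriptions without a test.

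Gene expression was measured in cells sorted as eosinophils from the stromal vascular fraction (SVF) of inguinal subcutaneous adipose tissue (subcut AT) of 3 Klf3-/- and 3 WT mice. All 6 were male FVB/NJ mice aged 12 weeks, litter-matched across genotypes, untreated, fed chow and housed at 22 °C. The Klf3-/- mice lack the transcriptional repressor KLF3 in every tissue, so a difference in the sorted cells need not arise in those cells. Sorting was for viable cells positive for CD45, CD11b, F4/80 and Siglec-F with high side scatter, and the RNA of each mouse was amplified and hybridised to its own Affymetrix HT MG-430PM array.

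IGF1 and IGF2 act mainly through the receptor tyrosine kinase IGF1R, and IGF2R carries IGF2 to the lysosome for degradation. Binding proteins lengthen the life of the ligands, keep them from the receptor, or release them when cleaved by proteases. In adipose tissue, fibroblasts, progenitors and macrophages are known sources of IGF1 and of several binding proteins, and the axis is known for its role in adipocyte precursor growth and differentiation.

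Deposited intensities had array medians of 46.7, 58.7 and 35.4 in Klf3-/- mice 1 to 3 and 36.8, 56.5 and 30.3 in WT mice 1 to 3, a 1.94-fold range, so values are given as log2 intensity after quantile normalisation between arrays unless stated otherwise. A level of 5.10 log2 units, the 95th percentile of 44 olfactory receptor probe sets, marked dim signals. Of 9 measured eosinophil markers only Prg3 (mean 5.20) and Ltc4s (5.13) lay above it, and Siglecf (4.36), Epx (4.35), Ccr3 (3.62), Il5ra (3.99) and Prg2 (3.31) lay below, so the arrays gave little signal from the defining genes of the labelled cell type. All 14 measured stromal fibroblast markers and all 12 measured macrophage markers lay above it. Of 6 Klf3 probe sets, 5 had all Klf3-/- arrays above all WT arrays (log2 fold changes of 0.69 to 2.83) and 1 had them below (-1.01). It is unknown here which probe sets lie within the disrupted sequence, so the labelled genotypes remain unchecked by them. Over all probe sets, limma found 0 of 45037 different at an adjusted p of 0.05 (Benjamini-Hochberg) and 2475 (5.5%) at an unadjusted p of 0.05, of which 1398 (3.1% of all) were higher and 1077 (2.39%) lower in Klf3-/-. An analysis of variance per probe set also called 0 after adjustment.

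Igfbp5 and Igfbp6 showed the largest differences among the members, with all Klf3-/- arrays above all WT arrays. Igfbp4 was higher on average by all 6 of its probe sets. The other measured binding proteins, Igfbp3 and Igfbp2, had a lower mean in Klf3-/- (log2 fold changes of -0.44 and -0.30). Both were dim, with Igfbp2 below the olfactory receptor level in every array and Igfbp3 close to it (mean 5.55). In RNA of a sorted fraction, more cells of a type and more RNA per cell cannot be told apart. Upstream sequence is shown for Igfbp4, Igfbp5 and Igfbp6, whose probe sets all had a higher mean in Klf3-/-. It is shown because KLF3 is known to bind CACCC boxes in DNA. The ligand Igf1 also had a higher mean by all its probe sets, and its upstream sequence, not shown, held 0 CACCC boxes. Each run holds the 250 bases before the RefSeq start on mouse assembly GRCm38.p6, written in the direction of transcription, with CACCC or its reverse complement GGGTG in capitals.
Igfbp4 (chr11:99040994-99041243, plus strand): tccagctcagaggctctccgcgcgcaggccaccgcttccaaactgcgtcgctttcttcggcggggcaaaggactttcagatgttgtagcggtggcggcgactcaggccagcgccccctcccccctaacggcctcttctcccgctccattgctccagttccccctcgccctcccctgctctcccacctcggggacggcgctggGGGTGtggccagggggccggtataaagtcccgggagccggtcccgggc
Igfbp5 (chr1:72874866-72875115, minus strand): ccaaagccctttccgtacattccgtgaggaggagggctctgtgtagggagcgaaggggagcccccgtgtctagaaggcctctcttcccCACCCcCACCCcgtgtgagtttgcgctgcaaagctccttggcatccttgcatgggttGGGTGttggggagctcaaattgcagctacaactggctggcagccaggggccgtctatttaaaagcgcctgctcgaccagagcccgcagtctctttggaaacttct
Igfbp6 (chr15:102143936-102144185, plus strand): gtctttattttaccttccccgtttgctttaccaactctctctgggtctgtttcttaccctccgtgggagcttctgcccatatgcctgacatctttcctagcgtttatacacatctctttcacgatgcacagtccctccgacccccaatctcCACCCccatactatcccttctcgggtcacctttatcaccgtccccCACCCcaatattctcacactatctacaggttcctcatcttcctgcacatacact

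The search covered both strands. Igfbp4 had 1 match, whose first base lay 48 bases before the start. Igfbp5 had 3 matches (162, 156 and 105 bases before it) and Igfbp6 had 2 (99 and 54 bases before it). A match was found in 52.0% of 32851 promoter windows of the same length, and 6.92% held 3 or more. Among the other members, Igf2 had 4 windows with 4, 4, 1 and 0 matches, Igfbp2 had 1 and 2 matches in its windows, Igfbp3 had 3, Igf2r had 2, and Igf1, Igf1r and Igfbp7 had 0. TATAAA, also searched on both strands, occurred in the Igfbp4 and Igfbp6 windows and in 12.4% of all windows, apart from the CACCC matches, and GGGCGG, in 32.7% of all windows, occurred in none of these 3. These are letter matches and say nothing of binding, which was not measured here.

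Igfbp6 encodes a secreted binding protein with a preference for IGF2 over IGF1. Its single probe set read 9.75, 9.95 and 9.92 log2 units in Klf3-/- mice 1 to 3, against 8.12, 8.06 and 7.80 in WT mice 1 to 3. The genotypes were far apart and the arrays of each lay close together. Mean levels were 9.88 ± 0.11 in Klf3-/- and 7.99 ± 0.17 in WT (SD, n = 3 arrays each), a log2 fold change of 1.88 ± 0.18 (SE), or 3.69-fold. On the deposited scale the intensities were 918, 1550 and 720 in Klf3-/- mice 1 to 3 and 238, 406 and 137 in WT mice 1 to 3. Within the replicate numbers the increase was 1.63, 1.89 and 2.13 log2 units. Leaving out each array in turn gave log2 fold changes of 1.79 to 1.96, and it ranked 146th of all probe sets by increase.

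Igfbp5 encodes a binding protein that also attaches to the extracellular matrix. The values were 10.70, 9.56 and 10.31 log2 units in Klf3-/- mice and 7.46, 8.35 and 8.46 in WT mice. No Klf3-/- array overlapped a WT array, but the replicates differed more than for Igfbp6, with Klf3-/- mouse 1 highest and WT mouse 1 lowest. Mean levels were 10.19 ± 0.58 for Klf3-/- and 8.09 ± 0.54 for WT (SD, 3 arrays each), with a log2 fold change of 2.10 ± 0.38 (SE), or 4.28-fold. In the same arrays the deposited intensities were 1781, 1176 and 953 in Klf3-/- mice and 151, 504 and 213 in WT mice. The within-number differences of 3.23, 1.21 and 1.85 log2 units were unequal, and leaving out each array gave log2 fold changes of 1.78 to 2.43.

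Igfbp4 encodes a binding protein that chiefly restrains IGF action until it is cleaved. By its brightest probe set the values were 10.91, 11.38 and 11.68 log2 units in Klf3-/- mice and 10.75, 10.18 and 11.16 in WT mice. Klf3-/- mouse 1 lay below WT mouse 3, so the genotypes overlapped, and the log2 fold change was 0.63 ± 0.31 (SE). Across the 6 probe sets the log2 fold change ran between 0.63 and 1.35. Of the 6, 3 separated the genotypes completely, with Klf3-/- above WT, against 4.49% of all probe sets. These 3 were of types that can share sequence with other genes (names ending in _s_at or _x_at), and none of the 3 other probe sets separated them. The widest separation belonged to 1 of the _x_at probe sets, with values of 8.84, 9.35 and 10.22 in Klf3-/- mice and 7.81, 8.20 and 8.36 in WT mice. Klf3-/- mouse 3 was the highest array by all 6 probe sets and WT mouse 2 the lowest by 5. As the 6 probe sets read 1 gene, they are not independent measurements.

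**Figure D1:**
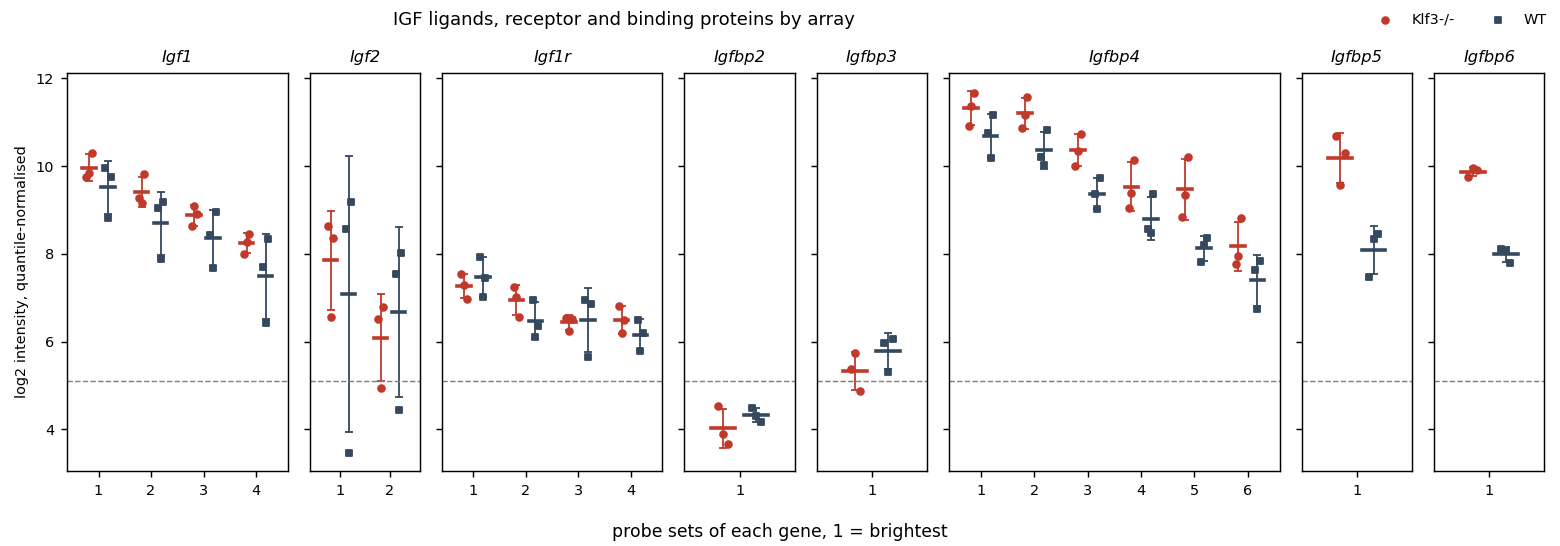
Log2 intensity after quantile normalisation (vertical axis) of the 20 member probe sets, numbered from the brightest within each gene, in 3 Klf3-/- arrays (red circles) and 3 WT arrays (dark squares). Thick lines are means, bars are SD and a dashed line marks 5.10, the olfactory receptor level. Igfbp5 and Igfbp6 show all Klf3-/- points above all WT points, while Igf2 spans the widest range among WT arrays.

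The other binding proteins measured were Igfbp3 and Igfbp2. Igfbp3, the main serum carrier of IGFs, read 5.38, 5.74 and 4.88 log2 units in Klf3-/- mice and 5.97, 5.31 and 6.05 in WT mice. Its genotypes overlapped and its log2 fold change was -0.44 ± 0.30 (SE). In Klf3-/- mouse 3 it lay below the olfactory receptor level. Igfbp2, an insulin- and nutrition-responsive binding protein, stayed below the olfactory receptor level in all 6 arrays (4.52, 3.88 and 3.65 in Klf3-/- mice, against 4.48, 4.30 and 4.17 in WT mice), with a log2 fold change of -0.30 at a level where a difference could not be read.

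Igf1, the main growth hormone-induced ligand, was higher on average in Klf3-/- mice by all 4 probe sets, with log2 fold changes of 0.45 to 0.75 and overlap in each. The brightest probe set read 9.76, 9.84 and 10.31 log2 units in Klf3-/- mice and 9.96, 8.83 and 9.76 in WT mice. WT mouse 2 was lowest by all 4 probe sets and Klf3-/- mouse 3 highest by 3, while the remaining arrays were close together. The next brightest probe set read 9.26, 9.16 and 9.81 in Klf3-/- mice and 9.04, 7.87 and 9.19 in WT mice, which repeats the low value in WT mouse 2. Without WT mouse 2 the log2 fold changes were 0.11 to 0.30. As deposited, every Klf3-/- intensity exceeded every WT intensity by all 4 probe sets, as in 3.61% of all probe sets. By the brightest these were 920, 1436 and 952 in Klf3-/- mice and 846, 710 and 527 in WT mice. Deposited values include differences in array brightness, and each Klf3-/- array had a higher median than the WT array of the same number.

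Igf2, the ligand of early growth, varied most within a genotype. Its brightest probe set read 8.63, 6.55 and 8.37 log2 units in Klf3-/- mice and 8.58, 3.46 and 9.19 in WT mice. Mouse 2 was the lowest of each genotype, and in WT mouse 2 the signal lay below the olfactory receptor level. The log2 fold change was 0.77 ± 1.45 (SE), and it turned to -1.02 without WT mouse 2. The other probe set read 6.51, 4.95 and 6.79 in Klf3-/- mice and 7.54, 4.45 and 8.01 in WT mice, with a log2 fold change of -0.59, so no direction can be given for Igf2.

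Igf1r encodes the shared receptor of both ligands. By the brightest of its 4 probe sets, the values were 7.53, 7.30 and 6.98 log2 units in Klf3-/- mice and 7.93, 7.02 and 7.44 in WT mice. The genotypes overlapped by every probe set, and the log2 fold changes had both signs, at -0.20, 0.47, -0.05 and 0.33 from the brightest to the dimmest. As deposited all 4 were above 0, the brightest at 0.06.

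Over the 20 probe sets, 15 had a higher mean in Klf3-/- and 5 a lower one. In 5 of the 20 every Klf3-/- array lay above every WT array, against 4.49% of all probe sets, and in 0 every Klf3-/- array lay below, against 6.51% of all. As deposited, the members numbered 12 above (3.61% of all probe sets) and 0 below (0.244%). The Klf3-/- array exceeded the WT array of the same number in all 3 numbers in 12 of 20 (11.5% of all) and lay below it in all 3 in 0 (18.0% of all). These figures describe the selection, because the same contrast was in view when the genes were chosen. The members' median log2 fold change was 0.67, beside -0.03 for all probe sets, and as deposited 0.85 beside 0.13. Without WT mouse 2, which was lowest of the 6 arrays in 14 of 20 member probe sets and in 19.6% of all, the members' median was 0.25. Several of these probe sets read the same gene, and by the brightest probe set WT mouse 2 was lowest in 3 of 8 genes. Counting 1 probe set per gene, 2 of 8 genes separated (4.84% of 17097 genes), Igfbp5 and Igfbp6, and the median was 0.54 beside -0.04 for all genes.

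**Figure D2:**
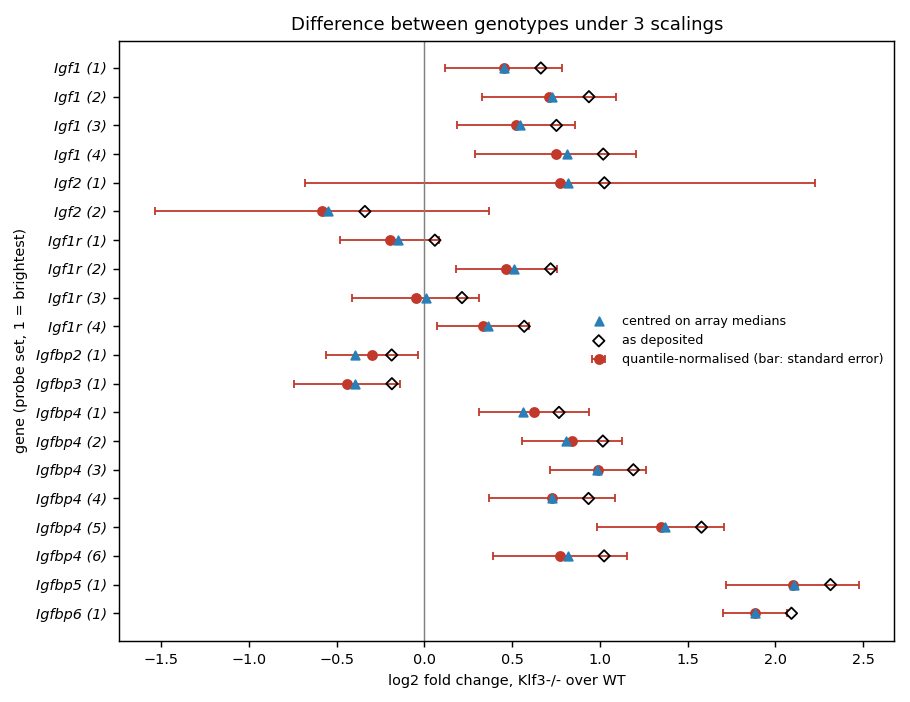
Log2 fold change of Klf3-/- over WT (horizontal axis) of the 20 member probe sets (rows, 1 = brightest within the gene) after quantile normalisation (red circles, bars are SE), after centring on array medians (blue triangles) and as deposited (open diamonds). Igfbp5 (2.10) and Igfbp6 (1.88) lie farthest to the right, and every diamond lies to the right of its circle.

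Markers of other cell types differed across the same arrays. The gate on CD45 and CD11b would remove fibroblasts, endothelial cells and epithelial cells, whose markers were nonetheless detected. All 14 measured stromal fibroblast markers had a higher mean in Klf3-/-, 7 with no overlap (4.84% of all genes) and 8 at an unadjusted p of 0.05 in limma (3.61% of all genes, lowest adjusted p = 0.663). Their summed linear level was 23010, 36102 and 25210 in Klf3-/- mice and 12890, 16209 and 22845 in WT mice. The sums did not overlap, but by a narrow margin. WT mouse 1 was lowest, as it was for Igfbp5. Klf3-/- mouse 2 had the highest sum, whereas for Igfbp5 it was the lowest of the Klf3-/- mice. The brightest of them were Col3a1, which encodes the chain of type III collagen and read 12.65, 13.02 and 12.91 in Klf3-/- mice and 12.29, 12.51 and 12.90 in WT mice, and Dcn, which encodes decorin, with a log2 fold change of 0.71. Fibroblasts are a known source of Igfbp4, Igfbp5, Igfbp6 and Igf1. The part of stromal cells in the members' differences was not tested.

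Macrophage markers were highest and lowest in the same arrays as Igf1 and Igfbp4. Their summed linear level was 13850 to 32435 in Klf3-/- mice and 9747 to 18314 in WT mice, 11 of 12 had a higher mean in Klf3-/-, and 0 passed adjustment in limma (2 higher at an unadjusted p of 0.05, against 3.61% of all genes). These arrays were Klf3-/- mouse 3 and WT mouse 2. C1qa and C1qb, complement genes of tissue macrophages and the brightest of the list, had log2 fold changes of 0.14 each. The list was uneven, as genes singled out after their values were seen show, with Lyve1 at 2.21 (without overlap), Folr2 at 1.60, Cd163 at 1.29 and Timd4 at -0.84 (lowest adjusted p = 0.862 by limma). The part of macrophage RNA in Igf1 and Igfbp4 was not tested.

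Endothelial markers were, by their sum, low in the same arrays as Igf2. Their summed level was 4298, 1317 and 5164 in Klf3-/- mice and 4653, 1614 and 7300 in WT mice. Mouse 2 was the lowest of each genotype, as for Igf2, but the sum was lower in Klf3-/- mouse 2 than in WT mouse 2, unlike Igf2. Of 10 measured markers, 9 had a lower mean in Klf3-/- and 1, Tek, a higher one (1.08). Tek was highest of the Klf3-/- mice in mouse 2, at 7.96. Pecam1, an adhesion molecule of endothelial junctions and the brightest of the list, read 10.37, 8.64 and 10.38 in Klf3-/- mice and 10.54, 8.14 and 10.75 in WT mice, and Egfl7 had a log2 fold change of -0.46. The part of endothelial RNA in the Igf2 signal was not tested.

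Other lists gave smaller or less even sums. Epithelial markers summed to 1655, 306 and 3540 in Klf3-/- mice and to 244, 408 and 184 in WT mice. The 2 high values belong to Klf3-/- mice 1 and 3, the same arrays in which Igfbp5 was highest. In Klf3-/- mouse 2 the sum lay below that of WT mouse 2, whereas Igfbp5 there lay above every WT array. Krt18, an intermediate filament gene of simple epithelium, read 9.70, 6.72 and 10.81 in Klf3-/- mice and 3.12, 7.22 and 3.35 in WT mice. Epcam had a log2 fold change of 1.22. Of 5 measured markers, 3 had a higher mean in Klf3-/- and 2 a lower one, Krt5 (-0.16) and Krt14 (-0.04). The part of epithelial RNA in Igfbp5 was not tested. Of 6 pericyte and smooth muscle markers, 5 had a lower mean in Klf3-/-, and the contractile genes Acta2 and Myh11 had log2 fold changes of -0.94 and -1.24. Adipocyte markers, summing to 71.7 to 89.4 in Klf3-/- mice, reached 215 in WT mouse 3 only, and Retn and Adipoq had log2 fold changes of -0.39 and -0.43. Lymphocyte markers summed to 1626 to 4494 in Klf3-/- mice and 1650 to 4123 in WT mice, and the T cell receptor complex genes Cd3e and Cd3g had log2 fold changes of 0.29 and 0.44.

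**Figure D3:**
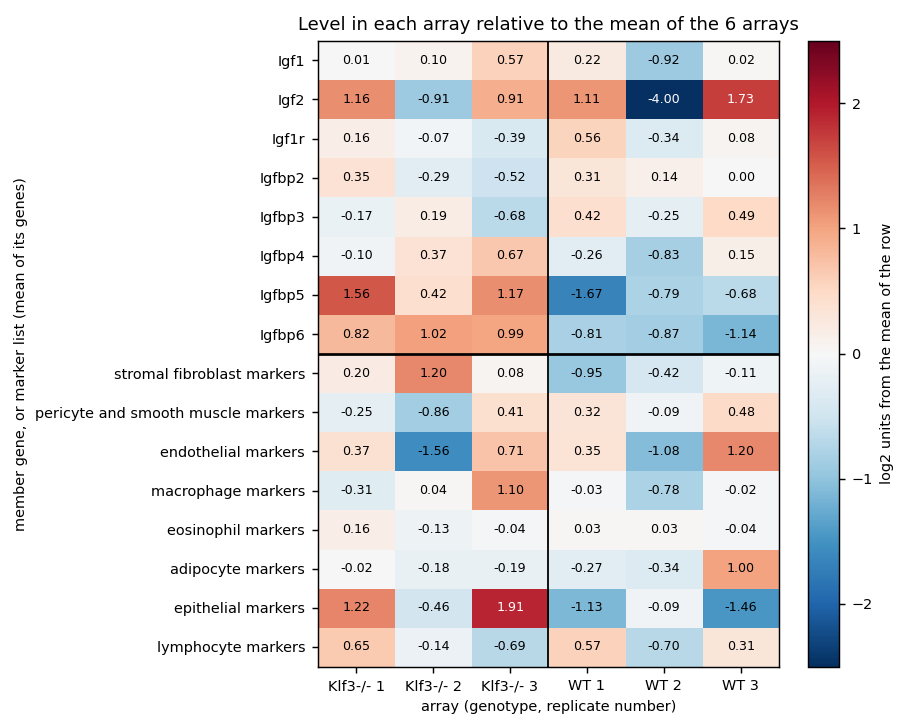
Log2 level relative to the mean of the 6 arrays (colour and printed value) for the 8 member genes (brightest probe set, above the line) and the mean of 8 cell type marker lists (below it), in Klf3-/- arrays 1 to 3 (left) and WT arrays 1 to 3 (right). Igfbp6 is positive in all Klf3-/- arrays and negative in all WT arrays, and Igf2 in WT mouse 2, at -4.00, lies beyond the colour range.

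The genes whose pattern over the 6 arrays was most like that of a member were found by the root mean square difference of centred log2 values. The search covered 11108 genes with a mean above the olfactory receptor level. For Igfbp6 these included Pcolce, which encodes an enhancer of procollagen processing (difference 0.16), Il1f9, which encodes an IL-36 cytokine (0.21), the matrix glycoprotein gene Emilin2 (0.27) and the laminin gene Lamb3 (0.30). Pcolce read 9.30, 9.44 and 9.27 log2 units in Klf3-/- mice and 7.73, 7.69 and 7.66 in WT mice. Il1f9 lay below the olfactory receptor level in every WT array, and Lamb3 in WT mice 1 and 3. The member nearest to Igfbp6 was Igfbp5, at 0.56. For Igf1 the most alike were Fez2 (0.08), Vat1 (0.10), Elovl6 (0.11), Zswim6 (0.11) and Gcnt1 (0.11), and the nearest member was Igfbp4 at 0.24. Fez2 read 8.90, 9.07 and 9.49 in Klf3-/- mice and 9.23, 8.21 and 9.03 in WT mice, with WT mouse 2 lowest. Genes like Igfbp6 separate the genotypes because Igfbp6 itself does. With 6 arrays many genes can share a pattern, so likeness is a description of these arrays only.

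Beyond the members, 70 genes of the IGF axis and insulin signalling were listed, of which 58 were measured and 47 lay above the olfactory receptor level. None passed limma's adjusted threshold (0 of 58, lowest adjusted p = 0.736), and 9 had an unadjusted p under 0.05 (6 by analysis of variance), beside 6.09% of 17097 genes. Of these 7 were higher (3.61% of all genes) and 2 lower (2.47%) in Klf3-/-. In 4 genes every Klf3-/- array lay above every WT array (4.84% of all genes) and in 4 below (6.55%). The median log2 fold change was 0.06 beside -0.04 for all genes. The PI3K and AKT list had 7 of 15 measured genes with a higher mean and 8 with a lower, and both measured RAS and MAPK genes had a lower mean. Mtor, the growth-regulating kinase, was the 1 gene of these without overlap, at 7.94, 7.87 and 8.02 log2 units in Klf3-/- mice and 8.08, 8.32 and 8.25 in WT mice (log2 fold change -0.28, adjusted p = 0.919 by limma). Insrr and Grb2, an insulin receptor relative and an adaptor, also lay lower in every Klf3-/- array, with log2 fold changes of -0.48 and -0.35. Insrr was dim, with Klf3-/- mouse 2 at 5.01, below the olfactory receptor level. As deposited, Mtor, Insrr and Grb2 each overlapped, with log2 fold changes of -0.05, -0.28 and -0.15.

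Of 9 measured proteases and cofactors of the binding proteins, 8 had a higher mean in Klf3-/- and 1 a lower one, but only 6 lay above the olfactory receptor level and 0 passed adjustment in limma (2 higher and 1 lower at an unadjusted p of 0.05). Stc2, which encodes a secreted inhibitor of the IGFBP-cleaving protease PAPP-A, read 8.23, 6.54 and 9.13 log2 units in Klf3-/- mice and 6.45, 6.30 and 6.20 in WT mice. Every Klf3-/- array was higher, but Klf3-/- mouse 2 only slightly, and the log2 fold change was 1.65 (adjusted p = 0.868 by limma). Adam9, a membrane metalloprotease gene, read 8.56, 9.29 and 9.10 in Klf3-/- mice and 8.46, 8.19 and 8.27 in WT mice, without overlap. Igfals, which encodes the acid-labile subunit of the serum IGF complex, was lower in every Klf3-/- array (-0.52) but its mean lay below the olfactory receptor level.

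The CCN family, whose proteins share an IGFBP-like domain, included 3 of the 9 genes with an unadjusted p under 0.05. Ccn5, a matricellular gene, read 7.22, 8.27 and 7.15 log2 units in Klf3-/- mice and 5.83, 5.84 and 6.40 in WT mice, with a log2 fold change of 1.52 (adjusted p = 0.736 by limma). Ccn3 also separated the genotypes, at 8.09, 7.71 and 8.24 in Klf3-/- mice and 6.60, 5.68 and 7.38 in WT mice (1.46). Ccn1 (1.17) overlapped, and Ccn2 and Ccn4, the other members measured, had log2 fold changes of -0.41 and -0.24 with overlap. Grb10, an adaptor that restrains IGF1R and insulin receptor signalling, read 7.90, 8.56 and 7.83 in Klf3-/- mice and 5.89, 5.88 and 8.01 in WT mice, so that WT mouse 3 overlapped the Klf3-/- arrays. The growth hormone receptor gene Ghr had a log2 fold change of 1.46 and the same overlap from WT mouse 3, at 8.44. The unadjusted count was 4 without Klf3-/- mouse 2, 5 without WT mouse 1 and 3 without WT mouse 2, against 9 with all arrays.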

How the data were processed

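Expression was measured on 6 Affymetrix HT MG-430PM arrays, 3 of Klf3-/- and 3 of WT mice, grouped by the sample titles. The deposited values are linear intensities, 1 per probe set and mouse, which the authors made in Partek software; a figure legend in their paper names RMA, without stating its steps. No quantile normalisation between arrays was present, so differences in array brightness enter the deposited values. Intensities were converted to log2 from the deposited values, quantile-normalised between arrays and fitted with limma 3.58.1 (lmFit and eBayes, genotype as the only term) in R 4.3.3, with Benjamini-Hochberg adjustment over all 45037 probe sets and a threshold of 0.05. The script was tested on simulated data. Tables and figures used Python 3.11.15, pandas 2.3.3 and matplotlib 3.10.9. The platform annotation gave 28898 probe sets 1 symbol, 551 several and 15588 none. Of 17097 symbols 44 had no match in the RefSeq table of GRCm38.p6, and all 10 member symbols matched. The CCN genes had been listed under older symbols, which were updated through that table. Sequences are from RefSeq for that assembly.

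Each gene was represented by its brightest probe set unless stated. Named in the text are all members, the listed IGF axis genes with an unadjusted p under 0.05 or no overlap, the 2 brightest genes of each cell type list and the 5 genes most like Igfbp6 and Igf1, of which 1 is not reported here. Other markers are named in the check of the labelled cell type and where the text says so. Members and lists were chosen with earlier results of these data known. The labels call the mice litter-matched, and deviations from the genotype means correlated weakly between arrays of the same number (r = 0.17, 0.23 and 0.21). Arrays of different numbers were not compared in this way, so it was not established whether the numbers pair the samples. The reported fit has genotype alone, and the fit with the number as a block was run as an alternative. The number of arrays limits precision. The limma p-values weigh each difference against the spread between arrays of the same genotype, moderated over the probe sets. Alternatives were values as deposited, median centring, a pseudocount of 16, the replicate block, a filter on dim probe sets, leaving out each array, unmoderated analysis of variance and other ways of treating several probe sets of a gene.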

Additional observations from a re-analysis of the deposited data

How the results depend on the processing

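Over all probe sets, 0 passed the adjusted threshold under every alternative run. The 1398 probe sets higher in Klf3-/- at an unadjusted p of 0.05 became 900 by analysis of variance, and the 1077 lower ones became 62 as deposited and 571 above the olfactory receptor level, where fewer probe sets were tested. Leaving out each array gave 1128 to 1610 higher and 883 to 1208 lower. Among the other IGF axis genes the count of 9 at an unadjusted p of 0.05 ran between 3 and 8 when an array was left out, and 0 passed adjustment. The replicate block gave 12 of these and changed no adjusted call. Of 20 member probe sets, 5 separated the genotypes with Klf3-/- above WT (4.49% of all probe sets), and 12 did as deposited (3.61%). With the pairing of the block, 12 had a higher Klf3-/- array in every number (11.5% of all probe sets). Leaving out an array gave 5 to 11, for which fewer arrays have to separate, and the members' median log2 fold change then ran between 0.25 and 0.90. As means per gene 3 of 8 genes separated. After the data were seen, counting only the brightest probe set per gene (2) and leaving out _s_at and _x_at probe sets (2) were added. No share over all features is given for the counts with an array left out, as gene means or without _s_at and _x_at probe sets. Those counts therefore cannot be read as a result about the members. Of 95 gene values 4 changed sign. Igf2 turned to -1.02 without WT replicate 2 (up to 1.86 with other arrays left out), and Igf1r turned to 0.060 as deposited, 0.036 without WT replicate 1 and 0.14 as the mean of its probe sets (down to -0.41 with an array left out). Igfbp6 moved to 2.09 as deposited. The cause of these changes was not tested.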

Other observations

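Other transcripts of the IGF loci overlapped between genotypes. The probe set shared by Airn and Igf2r, which could not be assigned to either, read 6.23, 5.68 and 6.39 log2 units in Klf3-/- mice and 6.10, 6.30 and 6.32 in WT mice. Igf2os, antisense to Igf2, read 5.18, 5.09 and 5.28 in Klf3-/- mice and 5.42, 5.01 and 5.58 in WT mice. Igf1os, antisense to Igf1, lay below the olfactory receptor level, with means of 3.44 ± 0.16 in Klf3-/- and 3.46 ± 0.12 in WT (SD, n = 3 arrays each). Among the member loci, Igfbp2 and Igfbp5 are adjacent protein-coding genes on chromosome 1, and their log2 fold changes were -0.30 and 2.10, the first from a dim probe set.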
